A study of Mus musculus with 11 samples.

Results

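The genes described here are the 4 butyrophilin-like genes Btnl1, Btnl2, Btnl4 and Btnl6, chosen by symbol from a deposited table of 11366 mouse genes, all 4 of which were measured. The study profiled RNA of epithelial cells sorted from the small intestine of wild-type mice in 3 groups, and asked, per its title, how dietary fiber affects antigen presentation by these cells. The Control group (3 libraries, numbered 2, 4 and 5) ate standard chow and had no treatment, the NFF group (4 libraries) ate a diet low in fermentable fiber and had no treatment, and the SFB group (4 libraries) ate standard chow and was colonized with SFB. In all groups the cells were sorted as live and EpCAM-positive, and as negative for CD45, CD31 and CD44. The labels give neither strain nor age, and do not say whether each library came from its own mouse, so p-values measure the spread between these libraries, which may be partly technical.

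Butyrophilin-like proteins are members of the immunoglobulin superfamily related to the B7 costimulatory molecules. In the mouse small intestine, Btnl1 pairs with Btnl6 or with Btnl4 on the enterocyte surface, and the Btnl1 and Btnl6 pair is known for maintaining a resident population of gamma-delta T cells in the epithelium. Btnl2 is known as an inhibitor of T cell activation. The genes lie in the major histocompatibility complex (MHC), next to genes of class II antigen presentation, and the question was whether they held steady where MHC genes moved.

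The 4 genes form 2 pairs on chromosome 17 (GRCm38, GENCODE M21 annotation). Btnl2 (34354822 to 34369495) and Btnl1 (34377132 to 34386028) are on the plus strand, and Btnl4 (34466562 to 34477318) and Btnl6 (34507804 to 34517352) on the minus strand, with the pseudogene Btnl5-ps (34488070 to 34497429) between the latter. On the side of Btnl2 lies the class II region, with H2-Eb1 (34305867 to 34316674), a class II beta chain gene, nearest among the class II genes measured. The first 150 bases of the annotated transcripts of Btnl4 and Btnl6, which begin at the start codon, are shown because they make visible how alike these paralogues are. Capitals mark the 8 bases that differ between them.
Btnl4: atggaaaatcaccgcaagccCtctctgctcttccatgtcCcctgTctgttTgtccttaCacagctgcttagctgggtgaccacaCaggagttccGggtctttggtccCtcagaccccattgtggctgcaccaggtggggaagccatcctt
Btnl6: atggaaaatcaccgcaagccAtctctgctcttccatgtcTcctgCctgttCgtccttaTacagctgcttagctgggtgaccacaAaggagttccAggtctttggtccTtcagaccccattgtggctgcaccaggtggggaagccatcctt
Over their aligned transcripts, Btnl4 and Btnl6 were 89.8% identical, and each was about as close to Btnl5-ps (90.1% for Btnl4 and 90.4% for Btnl6). Of all stretches of 50 bases, 10% in Btnl4 and 7.1% in Btnl6 also occurred in another transcript of this subgroup. How reads from such stretches were counted is not given, so the values of Btnl4 and Btnl6 are uncertain by an unknown amount. Most of this sharing was with pseudogenes: Btnl4 shared 6.7% of its stretches with Btnl7-ps and 3.7% with Btnl5-ps, Btnl6 shared 3.7% and 3.8%, and Btnl4 shared 1.6% with Btnl6. Btnl1 and Btnl2 shared no such stretch with each other or with the rest, and were 61.8% identical to each other.

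The 250 bases before the annotated start of Btnl1 and of Btnl2 follow (GRCm38.p6, plus strand), since levels of these 2 genes varied together over libraries as described further on. The starts used are 34377132 for Btnl1 and 34354822 for Btnl2, and distances below are counted from them. The RefSeq gene spans begin at 34377123 and 34354789, inside the windows. Capitals mark matches to the motifs searched on both strands.
Btnl1, chr17:34376882-34377131: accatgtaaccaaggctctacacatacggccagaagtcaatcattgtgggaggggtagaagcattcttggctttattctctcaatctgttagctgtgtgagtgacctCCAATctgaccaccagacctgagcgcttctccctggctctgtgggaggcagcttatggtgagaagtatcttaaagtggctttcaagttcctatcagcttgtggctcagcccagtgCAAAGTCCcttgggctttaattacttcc
Btnl2, chr17:34354572-34354821: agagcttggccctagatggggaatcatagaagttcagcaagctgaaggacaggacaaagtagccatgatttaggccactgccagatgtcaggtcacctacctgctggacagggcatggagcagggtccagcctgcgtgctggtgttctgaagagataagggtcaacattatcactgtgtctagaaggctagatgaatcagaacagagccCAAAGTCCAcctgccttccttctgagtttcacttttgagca
Btnl2 held CAAAGTCCA, a match to the HNF4 motif CAAAGTNCA, beginning 41 bases before its start, and 1.2% of 32544 promoter windows of this length held that motif. Btnl1 held CAAAGTCC, the first 8 of those bases, 28 bases before its start. That shorter run was added to the search after the sequences were seen, is contained in the Btnl2 match, and also occurred in 1.2% of windows. The CCAAT box, found in 33.8% of windows, occurred in Btnl1 143 bases before the start. Neither window held the CDX motif TTTATNG (9.74% of windows), the core of the interferon-stimulated response element GAAANNGAA (7.15%) or the gamma-activated site TTCNNNGAA (7.04%). Such matches describe the letters only. For Btnl4 and Btnl6 the annotated transcripts used above begin at the start codon and other models of these loci reach further upstream, so no promoter was read for them.

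The libraries themselves differed in makeup, and this touches Btnl1 and Btnl2. Epcam, the surface protein used in the sort, read 489 to 670 RPKM (reads scaled by gene length and by the library's total), and Vil1, an enterocyte brush-border protein, 311 to 620. Only 2 of 27 listed T cell markers were measured, Ptprc and Itgae, and they summed to 1.34 to 2.89 RPKM in Control, 2.31 to 3.86 in NFF and 1.11 to 4.55 in SFB. Of 10 listed myeloid markers 2 were measured, and they moved in opposite directions in SFB against NFF, each without overlap of the groups. Itgam rose by a log2 fold change of 1.41 (limma adjusted p = 0.0189), and Lyz2 was at -1.50 without passing the test. The part of myeloid cells in the MHC class II values was not tested. SFB 4 stood farthest from its group, with a root-mean-square deviation of 0.434 log2 units over all genes, followed by SFB 2 at 0.377 and Control 2 at 0.349. In SFB 4 the mean log2(RPKM + 1) of 22 enterocyte differentiation genes was 5.98, against 6.77 to 8.18 in the 10 other libraries, and that of 20 genes of dividing cells was 4.56, against 1.70 to 3.55. Control 2 had the most RNA of 14 proximal small-intestine genes, summing to 5992 RPKM against 315 to 1517 elsewhere, and Fabp6, an ileal bile acid-binding protein, read 146 RPKM there against 1762 to 4352. In SFB 2, 10 Paneth cell genes summed to 429 RPKM against 7819 to 27822 elsewhere. These markers also differed between the groups: all 8 tuft cell markers tested fell in SFB against NFF (median log2 fold change -2.35), and all 20 dividing-cell genes had values above 0 there (median 1.46), 15 without overlap, of which Birc5 and Ccnb2 passed the test. Over all tested genes in that comparison, 7.34% passed the test and 20.0% had groups that did not overlap. The count of 2 of 20 dividing-cell genes passing is near that share. The part of these differences in the comparisons of butyrophilin-like genes was not tested. In such bulk RNA, fewer cells of a type and less RNA per cell cannot be told apart. The sequencing depth is unknown, because the table gives no counts.

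All 4 butyrophilin-like genes were abundant, and their order was nearly fixed within libraries. Btnl6, the partner chain of Btnl1, was higher than Btnl1 in 11 of 11 libraries, by a ratio of 1.36 to 2.44 (median 1.85). Btnl1 was higher than Btnl4 in 10 of 11 libraries, the exception being SFB 4 at a ratio of 0.787. Btnl4 was higher than Btnl2 in 11 of 11 libraries, by 1.09 to 3.89. The ranges of neighbours in this order overlapped over the 11 libraries. These RPKM levels are per length of gene models that no source used here names, which limits comparisons of level between genes. Of the 10482 genes tested, 2.26% had a higher mean level on log2(RPKM + 1) than Btnl6, 4.76% than Btnl1, 6.83% than Btnl4 and 13.1% than Btnl2.

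Btnl6 read 122, 131 and 151 RPKM in Control 2, 4 and 5, then 179, 128, 163 and 109 in NFF 1 to 4, and 185, 216, 152 and 133 in SFB 1 to 4. The 3 groups overlapped, with the lowest value in NFF 4 and the highest in SFB 2. The group means were 134.7 ± 14.9 RPKM (SD, n = 3), 145.0 ± 31.8 (n = 4) and 171.5 ± 36.8 (n = 4).

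Btnl1, the chain that pairs with Btnl4 or Btnl6 at the cell surface, read 89.4, 68.3 and 86.6 RPKM in Control, 96.1, 79.1, 90.9 and 66.0 in NFF, and 100.1, 113, 74.2 and 54.5 in SFB. Its lowest and highest libraries were both SFB, so the SFB group covered the other 2 groups entirely. The means were 81.4 ± 11.4 RPKM in Control (SD, n = 3), 83.03 ± 13.4 in NFF (n = 4) and 85.5 ± 26.3 in SFB (n = 4).

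Btnl4, the other partner of Btnl1, read 50.9, 52.3 and 59.8 RPKM in Control, 65.9, 59.3, 59.1 and 47.4 in NFF, and 67.9, 66.5, 60.3 and 69.3 in SFB. All 4 SFB libraries were above all 3 Control libraries, by a margin of 60.3 against 59.8, and NFF overlapped both. The means were 54.3 ± 4.75 RPKM (SD, n = 3), 57.9 ± 7.68 (n = 4) and 66.0 ± 3.96 (n = 4). Btnl4 had the smallest spread of the 4 genes, and 76.3% of tested genes had a larger SD over the libraries on the log2 scale. That share was 35.6% for Btnl6 and 33.5% for Btnl1. The SD was 0.177 for Btnl4, 0.292 for Btnl6, 0.302 for Btnl1 and 0.459 for Btnl2. The median SD over all tested genes was 0.242, so every member but Btnl4 was above it.

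Btnl2 read 46.7, 21.2 and 28.9 RPKM in Control, 38.5, 27.2, 33.5 and 27.3 in NFF, and 46.0, 49.5, 32.95 and 17.8 in SFB. It was the most variable member, with highest over lowest at 2.78, and 13.7% of tested genes had a larger SD. The extremes were again SFB 4 and SFB 2, and the groups overlapped, at 32.2 ± 13.1 (SD, n = 3), 31.6 ± 5.47 (n = 4) and 36.6 ± 14.4 RPKM (n = 4). For scale, Cd74, the invariant chain of MHC class II, had highest over lowest at 21.3, and 0.821% of tested genes had a larger SD than it. The class I heavy chains H2-K1 and H2-D1 varied less than Btnl2, with highest over lowest at 2.28 and 2.29. Their SD on the log2 scale was 0.374 and 0.349, below the 0.459 of Btnl2 and above those of Btnl1, Btnl4 and Btnl6.

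**Figure D1:**
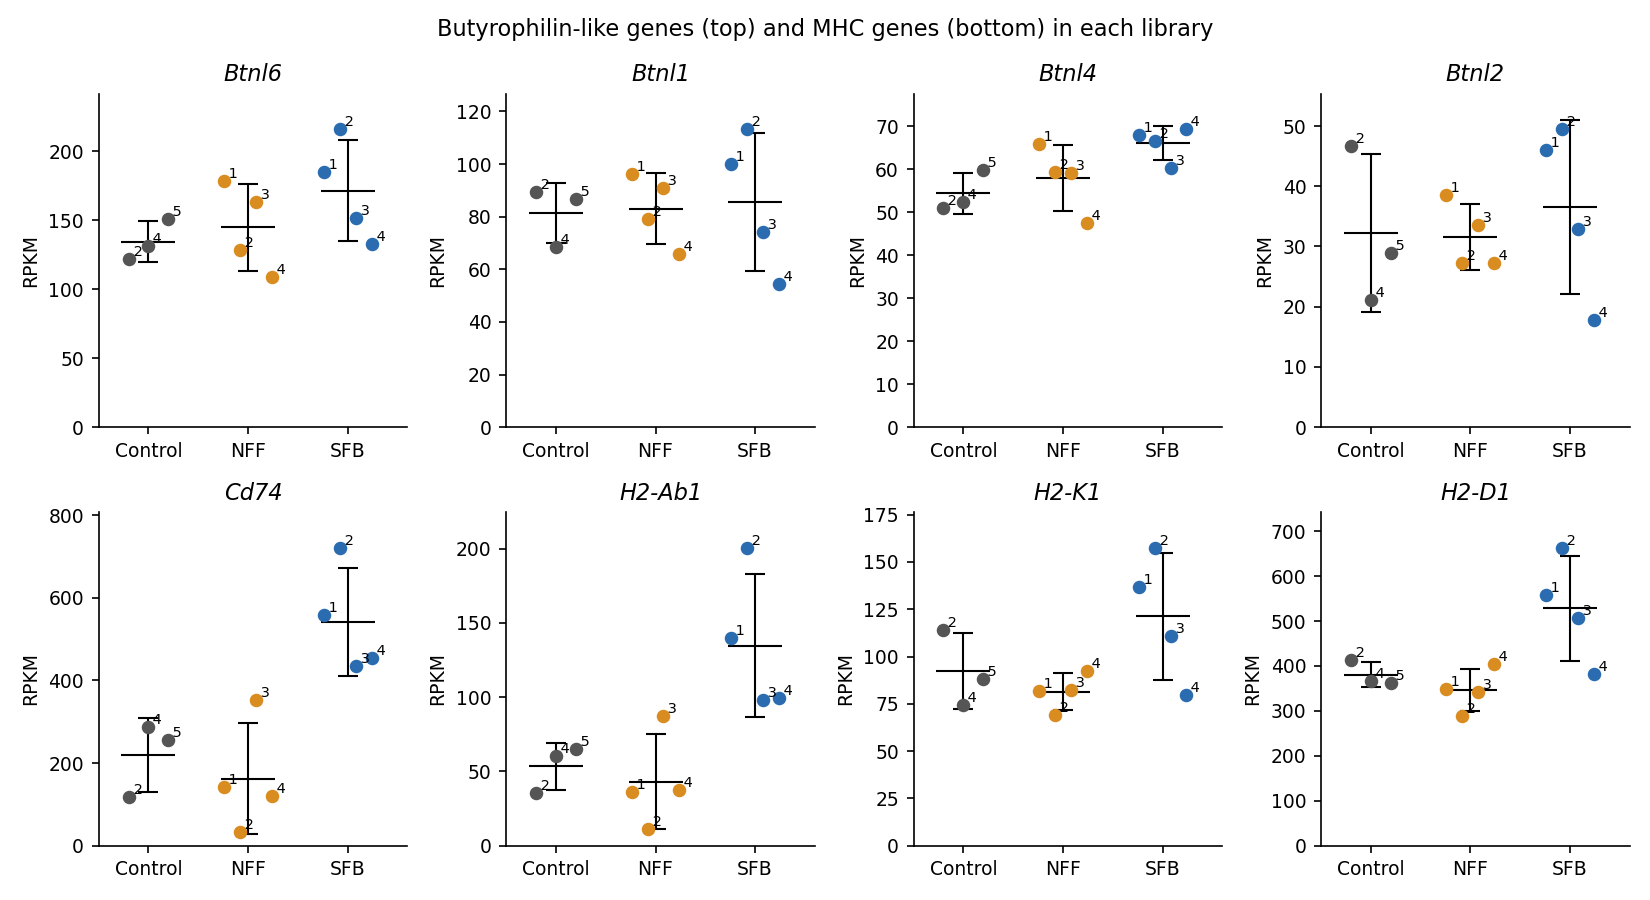
Level in RPKM (vertical axes, each from 0) of the 4 butyrophilin-like genes (top) and of 4 MHC genes (bottom) in every library, by group; points are libraries with their replicate number, and the bar with whiskers is the mean ± SD of 3 Control, 4 NFF or 4 SFB libraries. The groups overlap for the butyrophilin-like genes except SFB and Control in Btnl4, while all 4 SFB libraries lie above the other groups for Cd74 and H2-Ab1.

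Against Control, the low-fiber diet group showed no butyrophilin-like gene that passed the test (limma on log2(RPKM + 1), Benjamini-Hochberg adjusted p under 0.05 over all tested genes), in a comparison where 0% of 10482 genes passed. The log2 fold changes were 0.02 for Btnl1 (95% interval -0.49 to 0.54; limma adjusted p = 0.987), 0.03 for Btnl2 (-0.70 to 0.76; 0.987), 0.08 for Btnl4 (-0.20 to 0.37; 0.930) and 0.08 for Btnl6 (-0.37 to 0.54; 0.949). Their median was 0.06, against -0.01 over all tested genes, and leaving out 1 library moved it between -0.04 (without NFF 1) and 0.15 (without NFF 4). No member had groups that did not overlap, where 9.77% of all genes did, and 4.82% of all genes but no member had an unadjusted p under 0.05. Of the signs only that of Btnl4 held under all alternatives, so no direction is given for the others. The MHC lists had no call here either: medians were -0.54 for 8 class II genes and -0.14 for 15 class I genes, with 0 of 8 and 0 of 15 passing, and with no unadjusted p under 0.05 among them. Single libraries set these medians: that of class II was -0.08 without NFF 2 and -1.02 without NFF 3, where 5 of 8 had an unadjusted p under 0.05, and -0.88 without Control 2, and that of class I was -0.0018 without Control 2 and -0.07 without NFF 2.

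In SFB against Control, again no butyrophilin-like gene passed the limma test, where 0.200% of all genes did, so a count of 0 of 4 does not set these genes apart. Btnl6 had the highest log2 fold change at 0.33 (95% interval -0.13 to 0.79; limma adjusted p = 0.576), then Btnl4 at 0.28 (-0.01 to 0.56; 0.432), Btnl2 at 0.15 (-0.58 to 0.88; 0.907) and Btnl1 at 0.03 (-0.49 to 0.54; 0.983). The median of the 4 was 0.21, against 0.01 over all genes, and it was 0.08 without Control 4, 0.09 without SFB 2, 0.14 without SFB 1 and 0.35 without SFB 4. Btnl4 was the only member whose groups did not overlap, where 9.71% of all genes had that property, and no member had an unadjusted p under 0.05 (1 of 4 without Control 5, NFF 4 or SFB 3), where 12.1% of all genes did. With quantile normalization 2 of 4 had an unadjusted limma p under 0.05 and the median was 0.28. Without SFB 2, SFB 4 and Control 2 together, 1 of 4 did. Without SFB 4 the values were 0.22 for Btnl1, 0.45 for Btnl2, 0.25 for Btnl4 and 0.44 for Btnl6, with limma adjusted p of 0.597, 0.405, 0.371 and 0.304. Leaving out other libraries turned the sign of 2 members: Btnl1 was at -0.13 without SFB 2 and -0.09 without Control 4, and Btnl2 at -0.03 and -0.11, so the order of the 4 is not fixed. Without SFB 2, SFB 4 and Control 2, the 3 libraries farthest from their group means, Btnl2 reached 0.63 (adjusted p = 0.200).

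The MHC class II genes in the same comparison had larger fold changes, without passing the adjusted threshold. None of 8 class II genes was called by limma, where 0.200% of all genes were. All 8 had an unadjusted p under 0.05, as did 12.1% of all genes, and 6 of 8 had groups that did not overlap, as did 9.71% of all genes. The count of 8 fell to 2 without Control 2, to 4 without SFB 2 or with a replicate block, and to 5 without SFB 1. The median log2 fold change of the 8 was 1.33, from 0.89 to 2.01 (H2-Aa, the class II alpha chain, adjusted p = 0.263). Ciita, the class II transactivator, came closest at 1.21 (adjusted p = 0.0575). In class I, 0 of 15 heavy chain genes and B2m passed, with a median of 0.31 and 2 unadjusted p under 0.05, or 7 without SFB 4. A count of 2 of 15 is near the 12.1% of all genes with an unadjusted p under 0.05. H2-K1, a classical class I heavy chain, was at 0.37 (95% interval -0.12 to 0.86), which overlaps the intervals of the 4 butyrophilin-like genes. Of 15 genes that supply peptide to class I or activate it, Tap1, a subunit of the peptide transporter, rose by 1.31 (adjusted p = 0.00578) and Nlrc5, the class I transactivator, by 1.20 (0.0466).

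SFB against NFF, in which both diet and colonization differ, gave the widest gap between the lists. No butyrophilin-like gene passed the limma test, where 7.34% of all genes did. The log2 fold changes were 0.0025 for Btnl1 (95% interval -0.47 to 0.48; limma adjusted p = 0.996), 0.12 for Btnl2 (-0.55 to 0.79; 0.837), 0.19 for Btnl4 (-0.07 to 0.46; 0.341) and 0.24 for Btnl6 (-0.18 to 0.67; 0.456). Their median was 0.16, against 0.02 over all genes, and it was 0.03 without SFB 2, 0.08 without NFF 4 or SFB 1, 0.24 without NFF 1 and 0.28 without SFB 4. No member had groups that did not overlap, where 20.0% of all genes did. Without SFB 4 they were 0.20, 0.42, 0.17 and 0.36, and without SFB 2 they were -0.15, -0.06, 0.19 and 0.12, so the signs of Btnl1 and Btnl2 turned, and none passed in either case. The 3 comparisons share libraries, so their values are not independent of each other.

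In class II, 7 of 8 tested genes rose in SFB against NFF: H2-Aa (2.51; adjusted p = 0.0354), H2-Ab1 (1.88; 0.0386), H2-Eb1, Cd74 (2.14; 0.0399), Ciita (1.23; 0.00728), H2-DMa and H2-DMb1. H2-DMb2 was at 0.79 with limma adjusted p = 0.0674. The median of the 8 was 2.01, in a comparison where 7.34% of all genes were called. The call of single class II genes rests on few libraries: leaving out 1 library left between 1 and 7 of them called, with 1 called without NFF 2 or NFF 4, 2 without NFF 1, SFB 1 or SFB 2, 3 without SFB 3 and 4 without Control 5, and 2 were called without SFB 2, SFB 4 and Control 2. In class I, 3 of 15 rose, namely H2-Q6 (1.75; adjusted p = 0.00778), H2-Q4 (0.68; 0.0477) and H2-L (0.55; 0.0377), while H2-K1 was at 0.53 (0.136), H2-D1 at 0.59 (0.0795) and B2m, the shared light chain, at 0.48 (0.229). Leaving out 1 library left 1 to 5 of the 15 called, with 1 called without any NFF library, SFB 1 or SFB 3 and 5 without SFB 4.

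The levels of the MHC genes behind this gap were as follows. Cd74 read 119, 287 and 255 RPKM in Control, 142, 33.8, 352 and 121 in NFF, and 559, 721, 435 and 454 in SFB, so all SFB libraries were above all others. H2-Ab1, the class II beta chain, read 35.2, 60.2 and 64.8 RPKM in Control, 35.8, 11.15, 87.4 and 37.8 in NFF, and 139.9, 200.5, 98.1 and 99.3 in SFB, with the same separation. H2-K1 read 114, 74.6 and 88.1 RPKM in Control, 81.9, 69.0, 82.3 and 92.5 in NFF, and 137, 158, 111 and 79.8 in SFB. Unlike Cd74 and H2-Ab1, H2-K1 in SFB 4 lay within the range of the other groups, as did H2-D1 at 383 RPKM, and SFB 4 was also the library with the least Btnl1 and Btnl2.

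**Figure D2:**
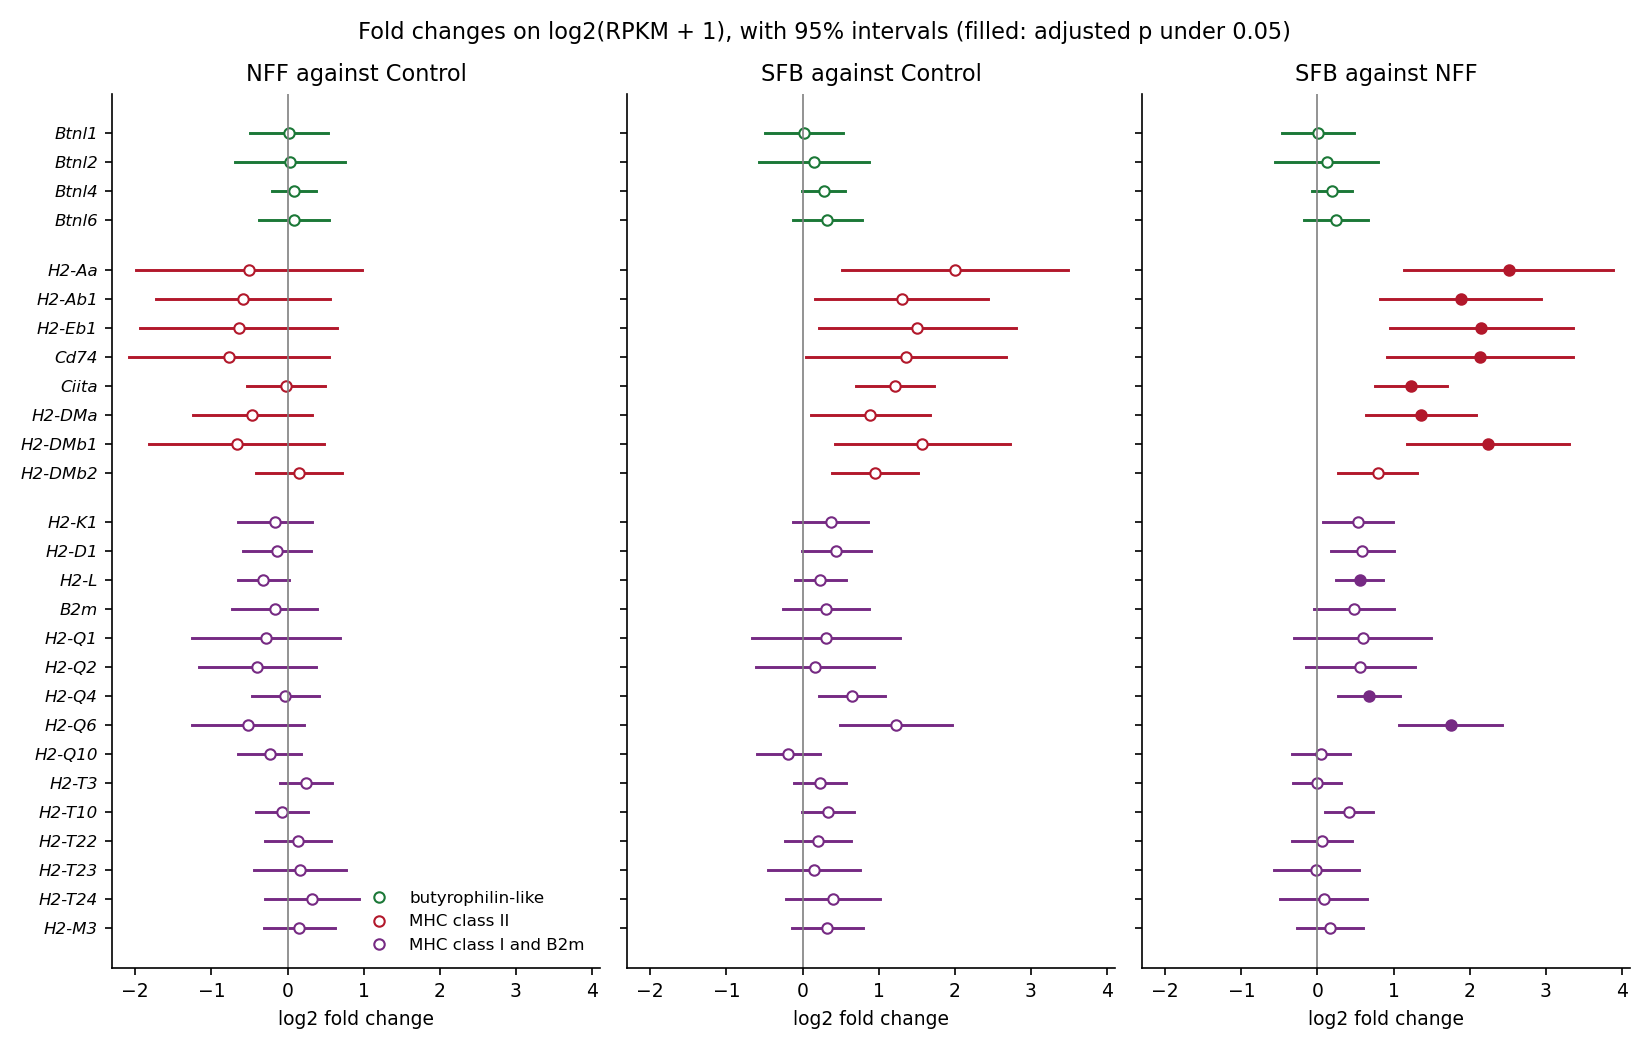
Log2 fold change on log2(RPKM + 1) (horizontal axis) with 95% intervals for the butyrophilin-like genes (green), 8 MHC class II genes (red) and 15 class I genes with B2m (purple), in the 3 comparisons; filled points passed an adjusted p of 0.05. The 4 butyrophilin-like intervals include 0 in every panel, and the filled points are all in SFB against NFF. Some signs near 0 changed under alternatives: those of Btnl1 and Btnl2, and that of Btnl6 in NFF against Control.

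Whether a butyrophilin-like gene moved differently from an MHC gene was tested directly, as the difference of the 2 log2 levels within each library. In SFB against NFF, the log2 level relative to Cd74 was lower by 2.13 for Btnl1, 2.02 for Btnl2, 1.94 for Btnl4 and 1.89 for Btnl6. None of the 4 overlapped between the groups, and each had p = 0.0286 in a two-sided exact permutation test, the smallest that 4 against 4 libraries allow (adjusted p = 0.0857 over 24 tests). All 4 subtract the same Cd74 values, so they are not 4 independent results. Cd74 alone separated SFB (at least 435 RPKM) from NFF (at most 352) and from Control (at most 287). In SFB against Control the difference relative to Cd74 was -1.34 for Btnl1, -1.09 for Btnl4 and -1.04 for Btnl6, each with an exact permutation p = 0.0286 (adjusted 0.0857), and -1.21 for Btnl2 (exact p = 0.0857, adjusted 0.206). Against H2-K1 the gap was smaller: Btnl1 was lower by 0.34 in SFB against Control (exact permutation p = 0.0286, adjusted 0.0857) and by 0.53 in SFB against NFF (exact p = 0.0857, adjusted 0.206). Btnl2, Btnl4 and Btnl6 against H2-K1 lay between -0.41 and -0.04 in these comparisons, with adjusted exact permutation p of 0.249 or more. In NFF against Control the smallest adjusted exact permutation p over the 8 differences was 0.530. None of the 24 differences passed an adjusted 0.05, but at least 14 of them would have had to reach the smallest possible p for any to pass, so the design left little room for it.

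The position of the genes gives a second view of the same contrast. Within 500 kb on either side of the cluster, 46 genes other than the members were tested. In SFB against NFF, 9 of them rose by the limma test: the class II genes H2-DMa, H2-DMb1, H2-Ab1, H2-Aa and H2-Eb1, the proteasome subunits Psmb8 and Psmb9, and the transporter subunits Tap1 and Tap2. The 46 genes thus had 12 calls (26.1%), where 7.34% of all genes were called. The 3 that fell were Rgl2, Cfb (complement factor B) and Neu1 (a lysosomal sialidase). The nearest of the genes that rose, H2-Eb1, has its midpoint 125.5 kb from the centre of the cluster, on the side of Btnl2 at 74.6 kb. The median of the 46 was 0.08. In SFB against Control 1 of the 46 rose (Tap1), and in NFF against Control none was called. The pseudogene Btnl5-ps, between Btnl4 and Btnl6, read 126, 129.8 and 160.4 RPKM in Control, 154, 152, 167 and 137 in NFF, and 154, 195, 145 and 127 in SFB, with log2 fold changes of 0.14, 0.15 and 0.01 in the 3 comparisons and no call.

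**Figure D3:**
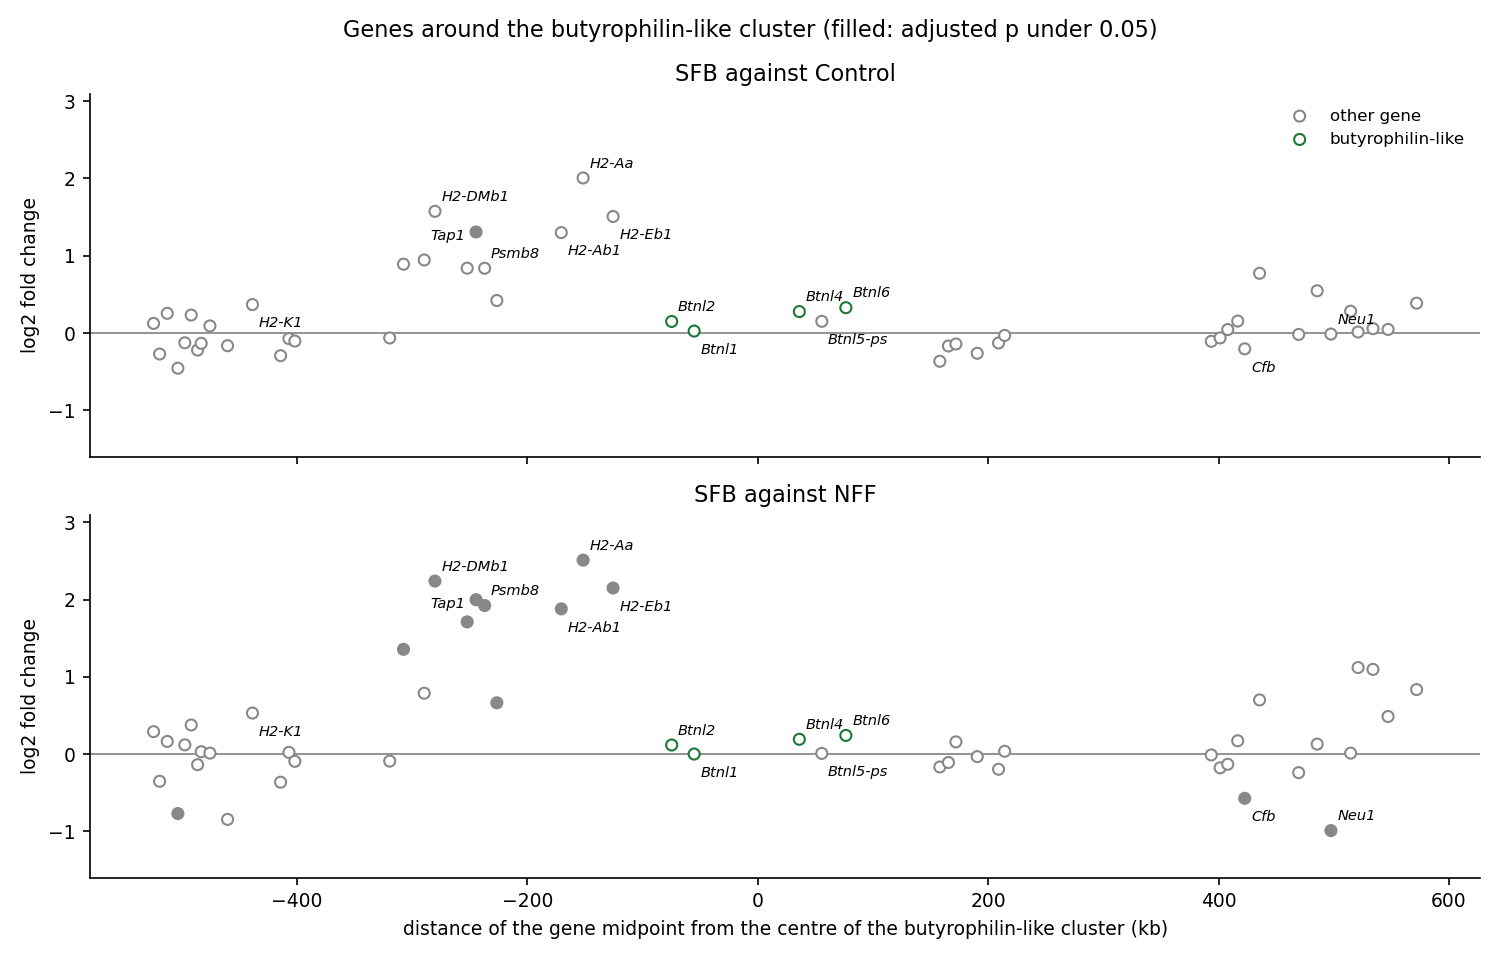
Log2 fold change (vertical axis) of each tested gene within 500 kb of the butyrophilin-like cluster against the distance of its midpoint from the cluster's centre in kb (horizontal axis), for SFB against Control (top) and SFB against NFF (bottom); green points are the 4 butyrophilin-like genes, grey points the 46 others, and filled points passed an adjusted p of 0.05. The class II and peptide supply genes to the left lie above 0, and the green points stay near 0 at 0.0025 to 0.24 in the lower panel.

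Among themselves, the 4 genes varied together to differing degrees. Over the 11 libraries Btnl1 and Btnl2 varied together (Pearson r = 0.90, permutation p = 0.00016, adjusted p = 0.0027 over 34 relations; Spearman rho = 0.88, permutation p = 0.00091, adjusted p = 0.0155), and r was 0.85 without SFB 4 and NFF 4, the libraries farthest from the median of Btnl1. With group means removed r was 0.91, so this relation lies within groups. Btnl1 and its partner Btnl6 had r = 0.76 (permutation p = 0.0074, adjusted p = 0.0253; rho = 0.75, p = 0.0112, adjusted p = 0.0567), and 0.78 without SFB 4 and NFF 4. The paralogues Btnl4 and Btnl6 had r = 0.74 (permutation p = 0.0088, adjusted p = 0.0266; rho = 0.72, p = 0.0158, adjusted p = 0.0567), and 0.53 without NFF 4 and Control 2. Btnl4 did not pass the adjusted threshold with Btnl2 (r = 0.14, permutation p = 0.678, adjusted p = 0.747; rho = 0.12, p = 0.734) or with Btnl1 (r = 0.28, permutation p = 0.403, adjusted p = 0.527; rho = 0.29, p = 0.388). Its r with Btnl2 was 0.42 without SFB 4 and Control 4, and with Btnl1 0.66 without SFB 4 and NFF 4. Both low values thus rested on the libraries left out. SFB 4, left out in both, had the most Btnl4 and the least Btnl1 and Btnl2. With 11 libraries, a missed threshold does not show that 2 genes are unrelated.

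Of 4 intestinal transcription factors set against the members over the same libraries, 3 had an adjusted permutation p under 0.05 for Pearson's r with Btnl2 and 2 with Btnl1. Cdx1, a homeobox factor of the intestinal epithelium, was lower where Btnl2 was higher (r = -0.92, permutation p = 0.00011, adjusted p = 0.0027; rho = -0.95, permutation p = 7e-05, adjusted p = 0.0024), and r was -0.85 without SFB 4 and SFB 2. With Btnl1, Cdx1 had r = -0.79 (permutation p = 0.0041, adjusted p = 0.0173; rho = -0.84, adjusted p = 0.0201; r = -0.58 without SFB 4 and SFB 2). Hnf4a, a nuclear receptor of enterocytes, also ran opposite to Btnl2 (r = -0.84, permutation p = 0.0007, adjusted p = 0.0059; rho = -0.85, adjusted p = 0.0192; r = -0.72 without SFB 4 and Control 2). Its paralogue Hnf4g ran with Btnl1 (r = 0.81, permutation p = 0.0027, adjusted p = 0.0132; rho = 0.74, adjusted p = 0.0567; r = 0.65 without NFF 4 and SFB 4) and with Btnl2 (r = 0.74, permutation p = 0.0094, adjusted p = 0.0266; rho = 0.71, adjusted p = 0.0567; r = 0.66 without NFF 4 and SFB 4). Hnf4a had no such relation with Btnl1 (r = -0.61, permutation p = 0.0447, adjusted p = 0.117; rho = -0.57, adjusted p = 0.163), and the homeobox factor Cdx2 had none with Btnl1 (r = -0.36, permutation p = 0.281, adjusted p = 0.416; rho = -0.46, adjusted p = 0.294) or Btnl2 (r = -0.58, permutation p = 0.0600, adjusted p = 0.136; rho = -0.67, adjusted p = 0.0788). None of these factors was called in any of the 3 comparisons, and of 19 transcription factors tested only Smad4, which transmits signals of the TGF-beta family, rose in SFB against NFF (0.63; limma adjusted p = 0.0418), a count near the 7.34% of all genes called.

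Other properties of the libraries moved with the same 2 genes. The mean of the 22 enterocyte genes ran with Btnl2 (r = 0.80, permutation p = 0.0014, adjusted p = 0.0080; rho = 0.71, adjusted p = 0.0567). Its r was 0.46 without SFB 4 and Control 4, so its size depends on those libraries, and 0.98 with group means removed. With Btnl1 the enterocyte mean had r = 0.75 (permutation p = 0.0071, adjusted p = 0.0253; rho = 0.58, adjusted p = 0.163). That r was 0.31 without SFB 4 and Control 4, and 0.84 with group means removed. The mean of the dividing-cell genes had r = -0.57 with Btnl2 (permutation p = 0.0672, adjusted p = 0.140; rho = -0.37). That r turned to 0.20 without SFB 4 and Control 4, so its sign rested on those libraries. It was -0.91 with group means removed over all libraries. The log2 of each library's median ratio to the average library, a measure of how its values are scaled, ran opposite to Btnl2 (r = -0.87, permutation p = 0.0004, adjusted p = 0.0045; rho = -0.80, adjusted p = 0.0286) and to Btnl1 (r = -0.84, permutation p = 0.0013, adjusted p = 0.0080; rho = -0.72, adjusted p = 0.0567). Without SFB 4 and SFB 2 these were -0.71 and -0.55. The part of library makeup and scaling in the relations of Btnl1 and Btnl2 was not tested. Btnl4 and Btnl6 had no adjusted permutation p under 0.05 with any of these factors or measures.

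**Figure D4:**
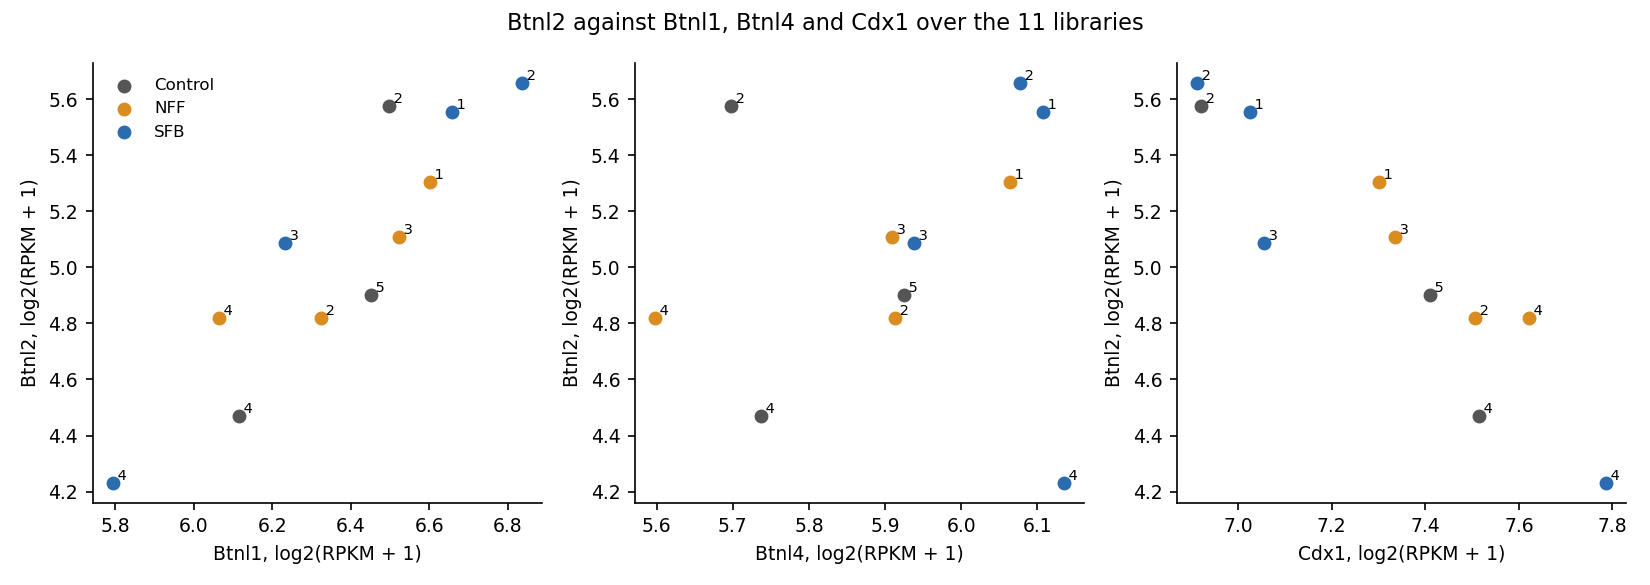
Level of Btnl2 (vertical axes, log2(RPKM + 1)) against Btnl1 (left), Btnl4 (middle) and Cdx1 (right) in the 11 libraries; each point is a library with its replicate number, coloured by group. Btnl2 is higher with more Btnl1 (r = 0.90) and lower with more Cdx1 (r = -0.92), and SFB 4 lies at the low end of Btnl2 in all 3 panels.

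By Pearson's r on the log2 scale over the 11 libraries, the genes most like each member were different for each. For Btnl1 they were Abhd3 (0.94), Epb41l3 (0.94) and Cmpk2 (0.94). For Btnl2 they were Plin3 (0.97), a lipid-droplet protein, Dnase1 (0.96) and Cdk18 (0.95). For Btnl4 they were Ctnnd1 (0.95), which encodes p120-catenin of the adherens junction, Myo1d (0.94) and Ccser2 (0.92). For Btnl6 they were Xpnpep1 (0.95), Itpk1 (0.93) and Srxn1 (0.93), the last a sulfiredoxin. These are the highest of all tested genes, so high values are given by the choice and carry no test.

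Of the other members of the butyrophilin and B7 families, 4 of 28 listed were measured. Cd274, which encodes the inhibitory ligand PD-L1, rose by 1.47 in SFB against NFF (limma adjusted p = 0.0186), from 0.244 to 0.822 RPKM in NFF to 1.23 to 5.50 in SFB, without overlap. It was at 1.01 in SFB against Control (adjusted p = 0.255). Icosl and Cd276, each near 1 RPKM, were not called in any comparison.

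The butyrophilin-like genes were also set beside other epithelial signals to intraepithelial lymphocytes, of which 19 could be tested. In SFB against NFF 2 rose, the chemokine Ccl28 (1.29; limma adjusted p = 0.0177) and the galectin Lgals9 (0.61; 0.0314), and 1 fell, Aldh1a1, an enzyme of retinoic acid synthesis (-1.64; 0.0278), where 7.34% of all genes were called. The other 16 did not pass, among them Il15, a survival cytokine of these lymphocytes (-0.49; 0.115), Cdh1, the E-cadherin that binds their integrin (-0.06; 0.861), and H2-T3, the ligand of CD8 alpha homodimers (-0.01; 0.979). No gene of the list was called in SFB against Control or NFF against Control, where 5 and 0 of the 19 had an unadjusted p under 0.05, beside 12.1% and 4.82% of all genes. The median over the list in SFB against NFF was -0.05, against 0.16 for the 4 butyrophilin-like genes.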

How the data were processed

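RPKM values of 11366 genes in 11 libraries were deposited by the authors in 1 table, per the file headers. Libraries were made from polyadenylated RNA with SMART-seq v4 and NexteraXT kits, per the labels' protocols, without molecular identifiers or strand marks. Reads were aligned with STAR to mm10, per the submitters' processing notes. Which counting tool, gene models and library totals were used is not given in the sources used here. RPKM are not counts, so log2(RPKM + 1) was fitted with limma 3.58.1 (R 4.3.3): 1 mean per group, 8 residual degrees of freedom, a mean-variance trend, and Benjamini-Hochberg adjustment over the 10482 genes at or above 1 RPKM in 3 or more libraries (884 left out). The scale understates changes of low genes. The fit was tested on simulated data. Permutation tests were exact for group differences and used 100000 draws for correlations. Entrez identifiers matched RefSeq (GRCm38.p6) for 11360 genes, all 4 members included. Positions come from GENCODE M21. The members, lists and tests were chosen with earlier results of these data known. Named genes were all members, the measured MHC genes, listed genes past the threshold with the main unchanged ones, and the 3 genes most like each member. Alternatives covered the pseudocount, filter, scaling, variance model, samples fitted, a replicate block and each library left out.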

Additional observations from a re-analysis of the deposited data

How the results depend on the processing

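Under 264 alternative values of the member fold changes, none had a limma adjusted p under 0.05 (smallest 0.200), and they ranged from -0.22 to 0.63; 240 kept their sign and 24 did not. The replicate numbers were not treated as pairs in the main fit. Of 8 same-numbered pairs, 2 had deviations correlated above 0.1 (from -0.30 to 0.67, the last for Control 4 and SFB 4). Of 11 libraries, 3 were most like a library of their own number. Such correlations cannot exclude a batch shared by libraries of the same number. With a replicate block, Btnl1 was at -0.053 and Btnl2 at -0.20 in NFF against Control, Btnl1 at -0.050 and Btnl2 at -0.082 in SFB against Control, and 1 class II and 1 class I gene were called in SFB against NFF. Median ratio scaling put Btnl1 at -0.014 in SFB against NFF. Quantile normalization called 5 class I genes there. Leaving out 1 library gave, in NFF against Control, -0.10 to 0.13 for Btnl1, -0.22 to 0.33 for Btnl2 and -0.025 to 0.21 for Btnl6; in SFB against Control, -0.13 to 0.22 for Btnl1 and -0.11 to 0.45 for Btnl2; and in SFB against NFF, -0.15 to 0.20 for Btnl1 and -0.056 to 0.42 for Btnl2. The same gave -0.30 to 0.045 for Btnl4 minus H2-K1 and -0.27 to 0.084 for Btnl6 minus H2-K1 in SFB against Control, 0 to 2 class II calls there, and 1 to 7 class II and 1 to 5 class I calls in SFB against NFF. Without SFB 2, SFB 4 and Control 2, an alternative chosen after seeing the data, class II calls were 1 in SFB against Control and 2 in SFB against NFF, and class I calls 2 and 5. The cause of these shifts was not tested.

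Depth is unknown, so counting error could not be separated from the spread between libraries. The 95% intervals leave room for changes in either direction: in SFB against Control they reach from -0.58 to 0.88 for Btnl2. With 3 or 4 libraries a group, a missed threshold does not show that a gene held steady.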
